A study of Copadichromis virginalis x Mchenga conophoros with 6 samples.

Results

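Allelic imbalance was examined in the whole brains of male F1 hybrids that had been put through a behavioural paradigm aimed at castle building. The hybrids carried 1 copy of the Copadichromis virginalis genome and 1 copy of the Mchenga conophoros genome. Males of the C. virginalis parent dig pits and males of the M. conophoros parent build sand castles to court females in Lake Malawi. The genes studied are the 8704 that were listed in both castle building tables, of 13212 genes listed in any of the 6 libraries of the series. The other libraries, set beside castle building, came from the same cross and sex from a paradigm aimed at pit digging (2 libraries) or from isolated males (2 libraries). The labels give no age, brood or individual for any library, and no parental brain was used here.

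In an F1 hybrid both parental alleles of a gene sit in the same nuclei and meet the same transcription factors. A lasting difference between them is therefore commonly read as a difference in cis, in the regulatory sequence or RNA stability that each copy carries, whereas a difference in trans acts on both. The measurement is a split of reads: only reads over sites where the parents differ can be assigned. The share given below is the part of a gene's assigned counts that lay on the C. virginalis allele, so that 50% is an even split, 66.7% is 2-fold towards C. virginalis and 33.3% is 2-fold towards M. conophoros.

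The castle building libraries held 2187643 and 2191037 assigned counts, against 2155680 to 3294397 in the other 4. They differed from each other by less than the sampling noise, in total counts per gene (chi-square per degree of freedom 0.495) and in the split between alleles (0.200). The same split measure was 2.43 between the pit digging libraries and 2.22 between the isolated ones. They were therefore averaged and counted as 1 sample, and there is no replicate error for castle building. Intervals are exact Clopper-Pearson 95% intervals on the averaged counts of this 1 sample, so they cover counting error only. Reads without molecular identifiers are not independent molecules, so the intervals can be too narrow even for that error. The median gene differed by 0.540 percentage points between the castle building libraries, against 4.75 points between the pit digging libraries and 4.88 points between the isolated libraries. Of the 8704 genes, 85 differed by more than 10 points between the castle building libraries.

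Whole-brain markers were present as far as the tables could show them. Of 7 neuronal markers 5 were listed, with 6029 counts together, of 7 radial glia and astroglia markers 4 (10822 counts), and of 8 oligodendrocyte and myelin markers 4 (2126 counts). Microglia and leukocytes (2 of 6 markers, 174 counts) and endothelium and meninges (2 of 6, 65 counts) gave little, and no erythrocyte, pituitary, retina or pineal marker was listed. A gene is listed only with at least 6 counts on each allele, so an unlisted marker is not a marker at 0. In whole tissue, fewer cells of a type and less RNA per cell cannot be told apart.

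Most genes in castle building brains were split close to evenly, and the larger imbalances lay mostly on the C. virginalis side. The larger imbalances of every other library lay mostly on that side too. Whether the assignment of reads favoured the alleles of C. virginalis was not tested. The median gene had a share of 50.6%, the middle 50% of genes lay between 47.0 and 54.5%, and the outer percentiles were 31.6% (1%) and 76.9% (99%). The share of all assigned counts was 52.20% (52.13 to 52.26%), against 53.93 and 53.06% in pit digging and 52.72 and 52.70% in isolation. For 7419 genes (85.2%) the interval held 50%. It lay above 50% for 903 genes and below 50% for 382.

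A gene was called where the alleles differed at least 2-fold and the interval of its share excluded 50%. This is a rule of size and counting error within 1 sample, not a test between animals. It took 360 of 8704 genes (4.14%), of which 268 lay towards C. virginalis (3.08%) and 92 towards M. conophoros (1.06%), with median shares of 72.9 and 29.4%. Beyond 4-fold were 63 genes on the C. virginalis side and 11 on the M. conophoros side. Of the 360 called genes 49.2% had a symbol, against 56.8% of all 8704, and the rest had an identifier only. Taken relative to the library-wide ratio of the alleles, which shifts every log2 ratio by 0.13, the rule took 206 and 148 genes. The C. virginalis side then held 58.2% of the calls in place of 74.4%. Relative to the median gene ratio the rule took 245 and 98 genes, and that side held 71.4%.

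**Figure D1:**
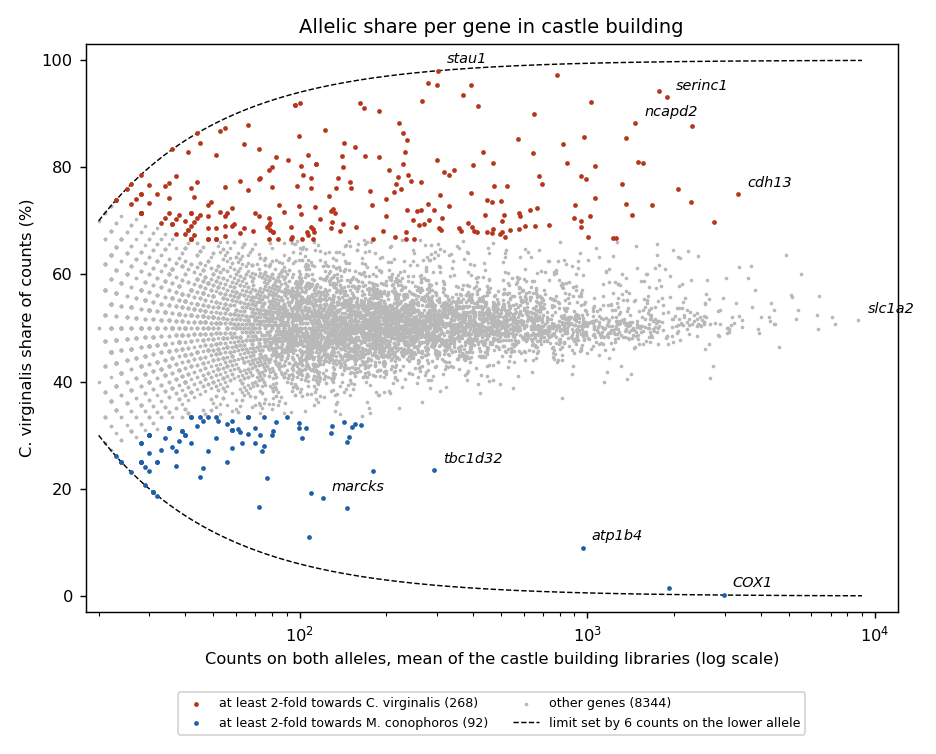
C. virginalis share of the counts of each of the 8704 genes (%) against its counts on both alleles in castle building (log scale). Red and blue points are the 268 and 92 called genes; the dashed lines mark the limit that 6 counts on the lower allele set, which genes of low total cannot cross.

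The sides differed in depth. Genes called towards C. virginalis had a median of 133.5 counts, against 54 for those called towards M. conophoros. Among the 1985 genes with 20 to 49 counts, 58 were called towards C. virginalis (2.92%) and 43 towards M. conophoros (2.17%). Among the 1709 genes with 200 to 499 counts the numbers were 63 and 1, and among the 380 genes with 1000 counts or more they were 22 and 2. These 2 were COX1, which the mitochondrial genome encodes, and the identifier APK84_gr01, with shares of 0.269 and 1.46%. The median width of the interval was 34.5 points in the lowest class and 4.97 points in the highest. The intervals are not adjusted for the number of genes, so counting error alone can carry evenly split genes past the rule at low counts. How many of the calls arose in that way was not computed. The listing itself bounds shallow genes: with 21 counts in all, a listed share can only lie between 28.6 and 71.4%.

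**Figure D2:**
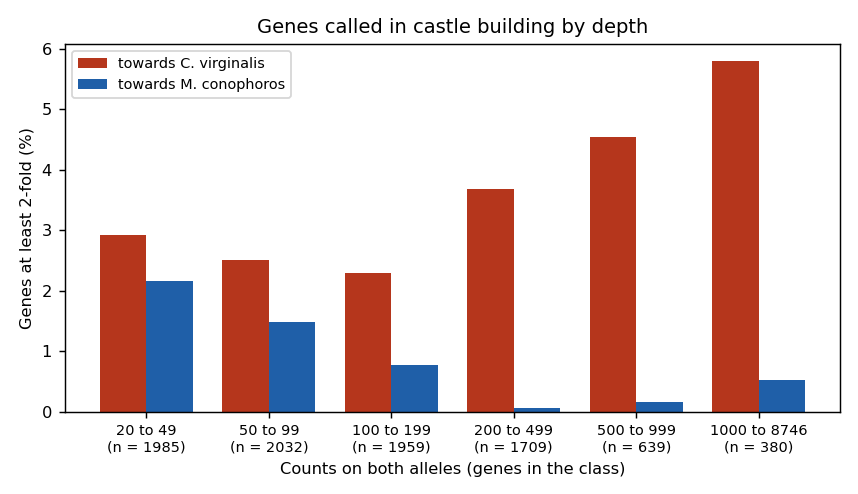
Percentage of genes called towards C. virginalis (red) and towards M. conophoros (blue) in castle building, by counts on both alleles, with the number of genes in each class. The M. conophoros bars fall to 0.0585% at 200 to 499 counts, while the C. virginalis bars reach 5.79% in the deepest class.

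The same rule was applied to each of the other libraries over the 6848 genes listed in all 6 tables. Castle building then had 211 genes towards C. virginalis (3.08%) and 63 towards M. conophoros (0.92%). Pit digging had 365 and 247 genes towards C. virginalis in its libraries and 23 and 43 towards M. conophoros. Isolation had 268 and 238 towards C. virginalis and 43 and 32 towards M. conophoros. Castle building thus had the lowest number on the first side and the highest on the second among these samples. Depth differs between the libraries, and among the 1478 genes with at least 200 counts in every sample the difference was not seen: castle building had 63 and 1, against 59 to 101 and 1 to 3 in the other libraries. The difference between castle building and the other libraries was not tested for these counts, because with 1 sample against 4 the smallest p of an exact permutation test is 0.2.

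The genes furthest towards C. virginalis included some that leaned that way in every library and some that did not. They were chosen by their fold in castle building, which favours a place above the other libraries. Stau1, a double-stranded RNA-binding protein that carries mRNA into dendrites, had 294 C. virginalis and 6 M. conophoros counts in the first castle building library and 297 and 6 in the second, a share of 98.01% (95.7 to 99.3%). Its share was 64.0 and 64.2% in pit digging and 76.4 and 49.1% in isolation, below castle building in all 4 libraries, though the difference did not pass by edgeR (adjusted p = 0.103). With 6 counts, its lower allele stands at the listing limit. Its paralogue stau2 had 149 and 13 counts in each castle building library (92.0%, 86.7 to 95.7%) and was listed in none of the other 4 tables. Reads of 2 related genes can be divided between them by the counting, so the values of this pair are uncertain.

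Dazap2, which encodes a proline-rich protein that binds DAZ proteins, had 269 and 267 C. virginalis counts and 11 and 12 M. conophoros counts in the castle building libraries, a share of 95.7% (92.6 to 97.8%). The other libraries had 91.9 and 87.1% in pit digging and 93.9 and 94.4% in isolation, so this gene leaned the same way in every sample. Tpt1, a growth-associated protein linked to translation, had 374 and 377 C. virginalis counts against 19 and 17 M. conophoros counts, a share of 95.4% (92.9 to 97.3%). It had 72.1 and 72.9% in pit digging and 71.6 and 71.8% in isolation, close to each other and below castle building.

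Serinc1, which inserts serine into membrane lipids, was the deepest of the genes furthest towards C. virginalis. It had 1760 and 1762 C. virginalis counts and 131 M. conophoros counts in each library, a share of 93.1% (91.8 to 94.2%), against 74.4 to 81.9% elsewhere. The RNA helicase ddx5 had 245 and 20 counts in each library (92.5%, 88.6 to 95.3%), against 66.4 to 70.3%. The integrin-related membrane protein itfg1 (92.0%) and the actin regulator cap1 (90.4%) also lay above the other 4 libraries, cap1 with a wide range there (38.4 to 85.8%). For neither gene did the difference pass by edgeR. The Golgi membrane protein tmbim4 (89.9%) and the ARF regulator elmod1 (86.5%) lay inside the range of the other libraries, which ran from 66.2 to 93.8% and from 49.9 to 88.7%.

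Ncapd2, a condensin subunit that compacts chromosomes, had 1278 and 1314 C. virginalis counts against 173 and 171, a share of 88.3% (86.5 to 89.9%). In the other libraries it had 60.6, 45.5, 49.3 and 57.6%, on far fewer counts: its level was 672 counts on both alleles per 1000000 assigned counts (CPM) in castle building, against 40.4 to 66.8 CPM elsewhere. Piwil1, an Argonaute family member of the germline piRNA pathway, completed the 12 genes, with 45 and 48 counts against 7 and 7 (86.8%, 74.7 to 94.5%). It was listed in no other library.

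**Figure D3:**
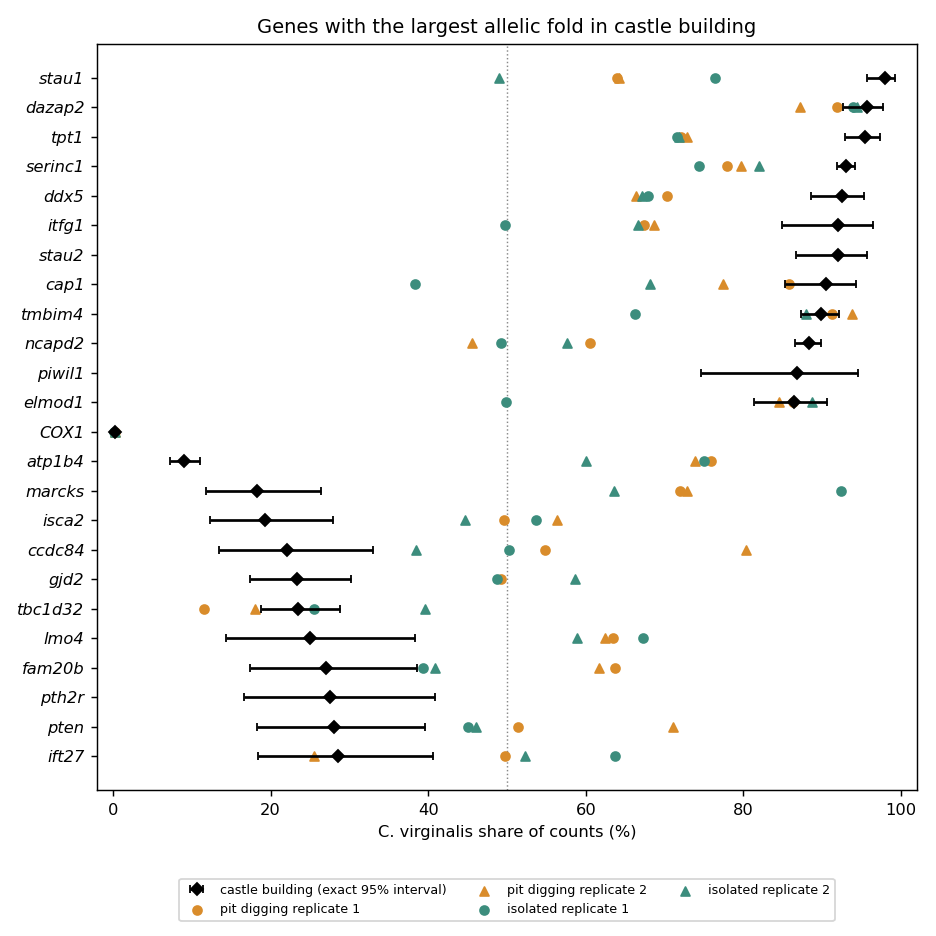
C. virginalis share (%) of the 12 genes with the largest fold towards each allele in castle building (diamonds, exact 95% intervals), beside the pit digging and isolated libraries. Castle building stands above the other libraries for 8 of the 10 upper genes that they list, and COX1 lies near 0% in every sample. The upper genes were chosen by their fold in castle building, which favours this place, so it adds no support. It held for 64.0% of the 211 genes called towards C. virginalis and listed in all 6 libraries, and for 19.7% of all 6848.

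Furthest towards M. conophoros was COX1, a cytochrome oxidase subunit encoded by the mitochondrial genome. It had 7 and 8 C. virginalis counts and 2945 and 2986 M. conophoros counts, a share of 0.269% (0.116 to 0.529%). The other libraries had 0.208 and 0.221% in pit digging and 0.182 and 0.206% in isolation, on 6785 to 23492 M. conophoros counts. Mitochondria are usually inherited through the mother, so a mitochondrial gene has no second allele in a hybrid cell. COX1 and the identifier LOC101485530 (16.4%) were called towards M. conophoros in castle building and in all 4 other libraries, and were the only genes so among the 6848. The identifier APK84_gr01 had a share of 1.46% (0.972 to 2.10%) on 1919 counts.

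Atp1b4, a member of the Na,K-ATPase beta family, had 87 C. virginalis counts in each castle building library and 875 and 876 M. conophoros counts, a share of 9.03% (7.30 to 11.02%). The other libraries leaned the opposite way, with 75.8 and 73.8% in pit digging and 75 and 60% in isolation. Its level was 440.6 CPM in castle building, against 13.2 to 47.7 CPM in the other 4. The M. conophoros allele alone had 876 counts in castle building, against 12 to 29 elsewhere, whereas the C. virginalis allele had 87, against 18 to 91.

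Marcks, a membrane-bound protein kinase C substrate that organises actin, had 20 and 23 C. virginalis counts and 98 and 99 M. conophoros counts, a share of 18.3% (11.9 to 26.4%). It had 71.9 and 72.8% in pit digging and 92.3 and 63.6% in isolation, and a level of 54.9 CPM in castle building, against 194.3 to 314.5 CPM in the other libraries. Isca2, which assembles mitochondrial iron-sulphur clusters, had 21 and 88 counts in each castle building library (19.3%, 12.3 to 27.9%), against 44.7 to 56.3%. Unlike for marcks, its level was close to that of the other libraries (49.9 CPM against 45.2 to 54.1 CPM). The difference in share did not pass by edgeR for isca2.

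Gjd2, the neuronal gap junction protein of electrical synapses, had a share of 23.3% (17.4 to 30.2%), against 48.8 to 58.6% in the 3 other libraries that listed it. The cilium-associated gene tbc1d32 had 23.5% (18.8 to 28.8%) and stood inside the range of the other libraries (11.5 to 39.6%). The transcriptional co-regulator lmo4 (25%) and the phosphatase pten, which opposes PI3 kinase signalling (28.0%), had intervals of 14.4 to 38.4% and 18.2 to 39.6%. The remaining genes of the 12 were ccdc84 (22.1%), the xylose kinase fam20b (27.0%), the parathyroid hormone receptor pth2r (27.6%) and the intraflagellar transport gene ift27 (28.6%), each on 58 to 77 counts.

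Whether a castle building imbalance was also present in the other brains could be read from libraries that had no part in the call. The genes called towards C. virginalis mostly kept their side, and those called towards M. conophoros mostly did not. Of the 211 genes towards C. virginalis listed in all tables, 124 (58.8%) lay above 50% in all 4 other libraries, against 19.99% of all 6848 genes, and their median share was 62.9 and 59.8% in pit digging and 58.9 and 59.1% in isolation. Of the 63 towards M. conophoros, 11 lay below 50% in all 4, which is 17.5% against 6.45% of all genes. Another 12 lay above 50% in all 4, and that share, 19.0%, is near the 19.99% of all genes. The median share of these 63 genes stood between 47.9 and 51.6% in the other libraries. Called the same way in all 4 other libraries were 43 of the 211 and 2 of the 63, against 75 and 3 of all 6848 genes. Called in neither direction in any of them were 93 of the 211 (44.1%) and 43 of the 63 (68.3%), against 89.3% of all genes.

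Depth moved with this. Of the genes called towards C. virginalis with at least 200 counts, 80 of 109 lay above 50% in all 4 other libraries, against 44 of 102 with fewer counts. Only 3 of the 63 genes towards M. conophoros had 200 counts or more: COX1, atp1b4 and tbc1d32. The part of depth, or of calls that counting error alone gives, in the difference between the sides was not tested.

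Among the 43 genes called towards C. virginalis in castle building and all 4 other libraries, the following were chosen after their values were seen, as the deepest with a symbol beyond serinc1 and tpt1. The calsyntenin clstn1, a synaptic adhesion and cargo-docking protein, had 73.0% in castle building (67.2 to 91.7% elsewhere). The calcineurin regulatory subunit ppp3r1 had 80.8% (70.4 to 76.3%), and the G protein subunit gnb1 had 70.0% (74.9 to 83.1%). Amd1, an enzyme of polyamine synthesis, had 72.0% (68.2 to 76.1%), and the endophilin family member sh3glb2 had 80.5% (76.1 to 93.0%). Castle building lay inside the range of the other libraries for clstn1, amd1 and sh3glb2, above it for ppp3r1 and below it for gnb1.

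A further 14 genes were called in castle building with all 4 other libraries on the other side of 50%. They are given as values: the 12 towards M. conophoros are the 19.0% named above, and the 2 towards C. virginalis are 0.948% of 211, against 6.45% of all genes below 50% in all 4. Among the 12 towards M. conophoros were atp1b4, marcks and lmo4, and also, chosen after their values were seen, the microRNA processing factor dgcr8 (23.9%, against 60.6 to 83.8%) and the glycolytic enzyme eno1 (24.3%, against 50.1 to 87.2%). Dgcr8 had 46 counts in castle building and eno1 had 37. By edgeR the difference from the other samples did not pass for marcks (adjusted p = 0.257), lmo4 (0.073), dgcr8 (0.417), eno1 (0.729) or rpl4 (0.296). The 2 towards C. virginalis were the adaptor abi1 (79.5%, against 46.2 to 48.3%) and the ribosomal protein gene rpl4. Rpl4 had 17 and 6 counts in each castle building library (73.9%, 51.6 to 89.8%), against 46.5 to 48.0% elsewhere, and a level of 10.5 CPM against 515.8 to 805.8 CPM.

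An edgeR quasi-likelihood test asked which allele ratios of castle building differed from 1, with the spread estimated from the pit digging and isolated pairs. It assumes that the lone castle building sample varies like those groups. Of 6844 genes, 117 passed (1.71%), of which 109 leaned towards C. virginalis (1.59%) and 8 towards M. conophoros (0.117%), at a Benjamini-Hochberg adjusted p under 0.05. Of the genes called by size, 96 of 211 and 7 of 63 passed the same way. Stau1 (log2 ratio 5.60 ± 0.77 SE, adjusted p = 0.0149), dazap2 (4.47 ± 0.29, adjusted p = 0.000461) and itfg1 (3.50 ± 0.54, adjusted p = 0.0235) passed by edgeR. Cap1 (adjusted p = 0.0922) and elmod1 (adjusted p = 0.334) did not, and nor did marcks (log2 ratio -2.15 ± 0.98 SE, adjusted p = 0.579). Isca2 (-2.06 ± 0.33, adjusted p = 0.0283) and tbc1d32 (-1.70 ± 0.26, adjusted p = 0.0227) passed. Without isolated replicate 1 or 2 the counts fell to 48 and 45 towards C. virginalis and 3 in each case towards M. conophoros, and DESeq2 gave 55 and 3.

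The castle building ratio was then set against the mean of pit digging and isolation in the same fit, with the same assumption about the lone sample and 2 residual degrees of freedom. With 1 castle building sample, a difference of the paradigm cannot be told apart from a difference of that sample alone. By edgeR, 25 of 6844 genes (0.365%) passed. The share of the C. virginalis allele was higher in castle building for 15 of them (0.219%) and lower for 10 (0.146%), and castle building lay outside the range of the other 4 libraries for each of the 25. A gene that passes on these same counts is likely to lie outside that range, so the range adds no support. Genes described as above or below the other libraries but not named as passing did not pass this test or were not in it. Of these 25 genes 16 had a symbol. At an unadjusted p under 0.05 there were 634 genes.

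The 10 genes with a symbol and a higher share lay between 65.2 and 95.4% in castle building. Tpt1, with the values above, differed by 3.01 ± 0.20 (log2 ratio, castle building minus the others, SE; adjusted p = 0.00299, edgeR). Ywhaq, a 14-3-3 adaptor protein, had 1165 and 1163 C. virginalis counts against 198 and 200 in castle building (85.4%, 83.4 to 87.2%) and 61.7, 62.1, 64.3 and 61.7% in the other libraries, a difference of 1.81 ± 0.15 (adjusted p = 0.00636). Ddx5 differed by 2.52 ± 0.25 (adjusted p = 0.0129) and ncapd2 by 2.72 ± 0.31 (adjusted p = 0.0239). Serinc1 passed as well (adjusted p = 0.0386).

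Abat, the transaminase that breaks down GABA, had 686 and 684 C. virginalis counts against 161 and 164 M. conophoros counts in castle building, a share of 80.9% (78.1 to 83.5%). The other libraries had 57.4 and 45.5% in pit digging and 49.4 and 43.9% in isolation, and the difference was 2.13 ± 0.28 (log2, SE; adjusted p = 0.0386, edgeR). Gad2, which makes GABA, had 986 and 941 counts against 514 in each library (65.2%, 62.7 to 67.7%), below the 2-fold call. It stood at 50.5, 50.1, 49.1 and 51.1% in the other libraries, nearly even in each, and the difference was 0.90 ± 0.13 (adjusted p = 0.0432). By DESeq2 the difference passed for abat but not for gad2. The summed level of both alleles was lower than in the other libraries for gad2 (676.3 CPM, against 972.2 to 1291.8 CPM) and within their range for abat (387.6 CPM, against 385.2 to 611.3 CPM).

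Abi1, a subunit of the actin-nucleating WAVE complex, had 60 and 63 counts against 17 and 15 (79.5%, 68.8 to 87.8%) and between 46.2 and 48.3% elsewhere (difference 2.09 ± 0.29, adjusted p = 0.0425, edgeR). The ubiquitin ligase adaptor wsb1 had 78.5% against 48.4 to 56.0%, and the exocyst subunit exoc6 had 78.4% against 49.1 to 63.3%. For wsb1 the castle building libraries themselves were 4.81 points apart.

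Lower shares were found for 6 genes with a symbol. For 5 of them castle building lay between 40.9 and 47.8% while the other samples leaned towards C. virginalis. Only atp1b4 went past 50% to the M. conophoros side by more than 2-fold (difference -4.76 ± 0.27, log2, SE; adjusted p = 0.00217, edgeR). Scg3, a granin that sorts cargo into dense-core vesicles, had 217 and 205 C. virginalis counts against 239 and 221 (47.8%, 43.1 to 52.6%) and 69.6, 70.9, 72.2 and 74.3% in the other libraries (-1.47 ± 0.17, adjusted p = 0.0239). Stmn2, a neuronal microtubule regulator, had 58 and 60 against 77 and 73 (44.0%, 35.5 to 52.9%) and 69.0 to 80.4% elsewhere. Its level was 61.3 CPM in castle building, against 448.6 to 522.6 CPM.

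Id2, an inhibitor of basic helix-loop-helix factors, had 19 and 23 counts in each castle building library (45.2%, 29.8 to 61.3%), against 87.0 to 91.2%. The G protein regulator rgs3 had 44.2% (38.9 to 49.5%), against 68.3 to 78.0%, at a level close to the other libraries (161.5 CPM, against 118.1 to 189.0 CPM). The ubiquitin ligase mgrn1 had 40.9% (34.3 to 47.8%), against 89.7 and 84.0% in pit digging and 68.3 and 66.5% in isolation. For mgrn1 the other libraries were thus not alike either.

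**Figure D4:**
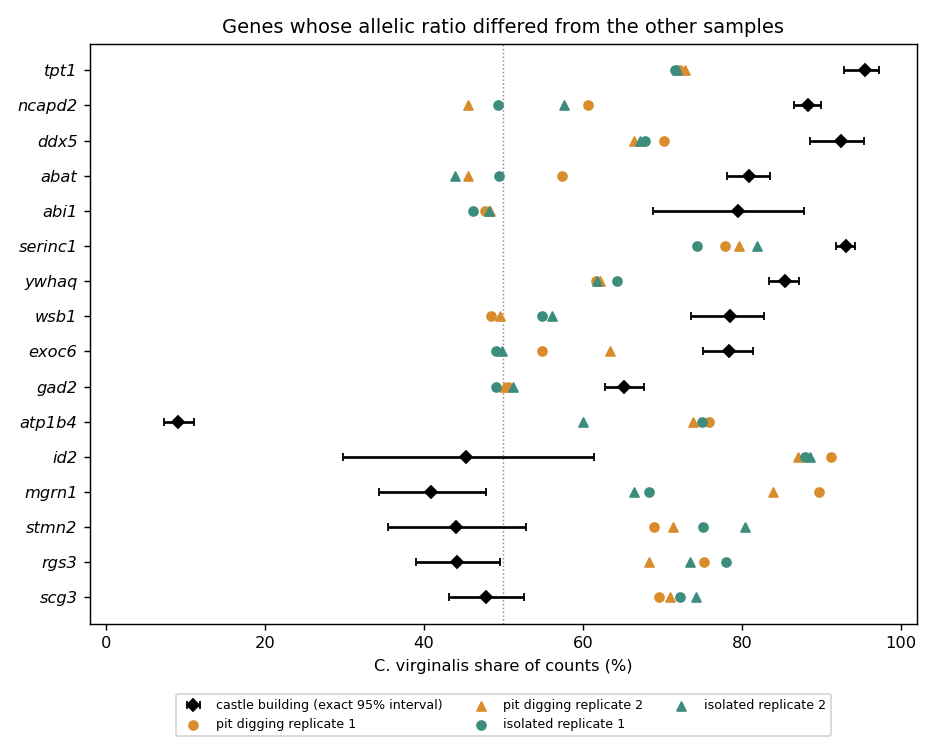
C. virginalis share (%) in castle building (diamonds, exact 95% intervals) and in the pit digging and isolated libraries, for the 16 genes with a symbol whose allelic ratio differed (edgeR). By the rule that chose them, the 10 upper genes lie to the right of the other libraries and the 6 lower ones to the left. Of the lower ones, all but atp1b4 lie between 40.9 and 47.8%.

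Summed level often differed as well. Of the 10 genes with a lower share, 6 had a level less than that of the other libraries by 2-fold or more and 1 a level 2-fold or more above it. Of the 15 with a higher share, 3 were below and 2 above by that much. Over all 6844 genes the percentages were 17.7 below and 17.5 above, so that level differed 2-fold or more for 35.2% of genes and for 48.0% of the 25. Genes below by that much include tpt1 (180.3 CPM, against 432.4 to 517.3 CPM elsewhere), ddx5, abi1 and id2 (19.2 CPM, against 86.0 to 144.5 CPM). Those above include ncapd2 and atp1b4, with the levels given earlier. The part of level or depth in the allelic differences was not tested. Of the 25 calls, 6 remained without isolated replicate 1 and 6 without isolated replicate 2, where the counts were 5 higher and 3 lower in each case. Without pit digging replicate 2, 25 genes passed as lower, and DESeq2 gave 9 and 7.

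Genes listed in castle building and in none of the other 4 tables numbered 226, with a median of 40 counts. Of these, 11 were called towards C. virginalis and 9 towards M. conophoros, which is 8.85% against 4.0% of the genes listed in all tables. The latter were deeper, with a median of 140 counts. Genes listed in 1, 2 or 3 of the other libraries had medians of 44, 53 and 56 counts. Of them 3.13, 2.96 and 5.11% were called. The part of depth in these percentages was not tested. Among the 226 genes, the 5 deepest called ones with a symbol included stau2 and piwil1 above and the anti-proliferative regulator tob2 (51 and 21 counts, 70.8%, 58.9 to 81.0%). The others were the receptor pth2r and the nascent polypeptide chaperone naca (12 and 28 counts, 30.0%, 16.6 to 46.5%). A gene can be absent from a table where 1 allele, or the total, was under the listing limit, so absence does not mean 0 counts. Deep genes were also absent, for which the reason was not tested. Ndufa4 had 1437 and 1477 counts in pit digging replicate 1 and 921 and 929 in replicate 2, and was listed in neither isolated table.

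Gene groups were read by their counts beside the background of 3.08 and 1.06% of genes called towards each allele. Of 675 genes in any of 26 lists, 24 were called towards C. virginalis and 10 towards M. conophoros, and their median log2 ratio was 0.04, as over all genes. Synaptic genes had median shares close to the 50.6% of all genes. None of 32 genes of vesicle release and SNARE function was called (shares 36.4 to 61.2%, median 50.4%), nor any of 17 glutamate receptor and transport genes (47.0 to 61.3%, median 51.5%). The active zone gene rims4, the deepest of the first list, had 55.9% (54.7 to 57.1%) on 6372 counts, against 50.9 to 53.6% elsewhere. The glutamate transporter slc1a2, at 8746 counts the deepest gene of all with a symbol, had 51.5% (50.4 to 52.6%), against 67.5 and 67.3% in pit digging and 53.9 and 60.2% in isolation. That difference did not pass by edgeR (adjusted p = 0.181).

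Among 36 postsynaptic scaffold and adhesion genes 2 were called, both towards C. virginalis. The GPI-anchored cadherin cdh13 had 75.02% (73.5 to 76.5%), against 71.6 and 76.0% in pit digging and 50.9 and 51.2% in isolation, and clstn1 is given above. Of 14 GABA genes abat was called. Calmodulin and calcineurin signalling had the highest median share among lists of 4 or more members, 57.8%. Of its 14 genes, ppp3r1, the CaM kinase inhibitor camk2n2 (73.1%, 70.7 to 75.4%) and calm2 (67.5%, 63.2 to 71.6%) were called towards C. virginalis. For calm2 castle building lay inside the range of the other libraries (62.6 to 67.5%), for camk2n2 above it (53.4 to 70.4%). The camk2n2 difference did not pass by edgeR. The calmodulin-binding peptide pcp4 (33.3%, 22.2 to 46.0%) was called towards M. conophoros, against 44.1 to 50% elsewhere. The first 3 passed the edgeR test of castle building (adjusted p = 0.000744 for ppp3r1, 0.0134 for camk2n2 and 0.0323 for calm2).

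The channel, pump and peptide lists held 1 call each. Of 26 voltage-gated channel genes the pacemaker channel hcn2 was called, on 6 and 17 counts (26.1%, 10.2 to 48.4%), and of 9 ion pump genes atp1b4. Of 16 granin and neuropeptide genes the dense-core vesicle protein ptprn was called towards M. conophoros (27.0%, 13.8 to 44.1%). No gene was called among 6 immediate early genes, where npas4 had 48.1% (40.8 to 55.5%), among 9 steroid and thyroid genes, where the receptor thrb had 55.7% (52.0 to 59.3%), or among 4 monoamine and acetylcholine genes, where ache had 54.5% (48.4 to 60.4%). Nor was any among 11 clock genes, where rora had 49.1% (45.4 to 52.8%), or 11 neurogenesis genes, where the RNA-binding protein elavl3 had 64.6% (62.5 to 66.7%).

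In glia, the astrocyte membrane protein mlc1 (77.3%, 71.7 to 82.2%) and the aldolase aldoc (67.0%, 64.0 to 69.9%) were called towards C. virginalis among 14 radial glia and astroglia genes. The other libraries had 78.7 to 81.5% for mlc1 and 63.5 to 75.6% for aldoc. The perinodal matrix protein hapln2 was called towards M. conophoros among 9 oligodendrocyte and myelin genes (29.7%, 22.5 to 37.8%), against 45.8 to 47.9% elsewhere, and the difference did not pass by edgeR (adjusted p = 0.163). The antigen-presentation chain cd74, the deeper of 2 leukocyte genes, had 46.3% (38.01 to 54.7%), against 91.8 and 58.8% in pit digging and 92.3 and 92.9% in isolation, without passing the edgeR difference (adjusted p = 0.438). The matrix proteoglycan dcn had 38.6% (29.6 to 48.2%), the deepest of 6 vascular and meningeal genes, none of which was called.

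Among housekeeping groups, 4 of 64 ribosomal and translation genes were called towards C. virginalis and 1 towards M. conophoros. They include tpt1, rpl4 and the initiation factor eif4a2 (66.7%, 55.1 to 76.9%) on the first side and rpl35 on the other (6 and 25 counts, 19.4%, 7.45 to 37.5%). Of 54 splicing and RNA-binding genes 4 and 1 were called, with the U1 component snrnp70 (70.9%, 68.0 to 73.7%) beside stau1, stau2 and ddx5. Of 139 ubiquitin and proteasome genes, wsb1, the proteasome subunit psma2 (68.6%, 63.1 to 73.8%) and fbxl6 (66.7%) were called towards C. virginalis and ube2g1 (30.0%) towards M. conophoros. For psma2 castle building lay inside the range of the other libraries (56.9 to 72.9%). It lay above that range for fbxl6 (39.4 to 54.4%) and below it for ube2g1 (43.1 to 85.4%), but neither difference passed by edgeR. With so few calls in a list, no list is read as standing apart from the background.

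Of 65 chromatin genes 4 were called towards C. virginalis and 0 towards M. conophoros. The histone acetyltransferase kat6b had 80.1% (72.6 to 86.4%), against 47.5 to 59.7% in the other libraries, and the difference did not pass by edgeR (adjusted p = 0.0942). The Polycomb protein cbx8 had 75% (55.1 to 89.3%) on 28 counts and the ISWI ATPase smarca5 67.9% (56.6 to 77.8%) on 81. Each lay above the other libraries, but neither difference passed by edgeR. The BAF subunit dpf2 had 70.9% (57.1 to 82.4%), below the 72.5 to 90.4% of the other libraries. Of 67 cytoskeletal genes tubgcp3, of the gamma-tubulin complex, was called (71.4%, 57.8 to 82.7%), and of 38 chaperones the endoplasmic reticulum chaperone hsp90b1 (28.8%, 21.6 to 36.8%), against 49.6 to 53.9% elsewhere (adjusted p of the difference = 0.0837, edgeR). None of 15 nuclear-encoded oxidative phosphorylation genes was called, and ndufa4 had 46.1% (43.3 to 48.9%).

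**Figure D5:**
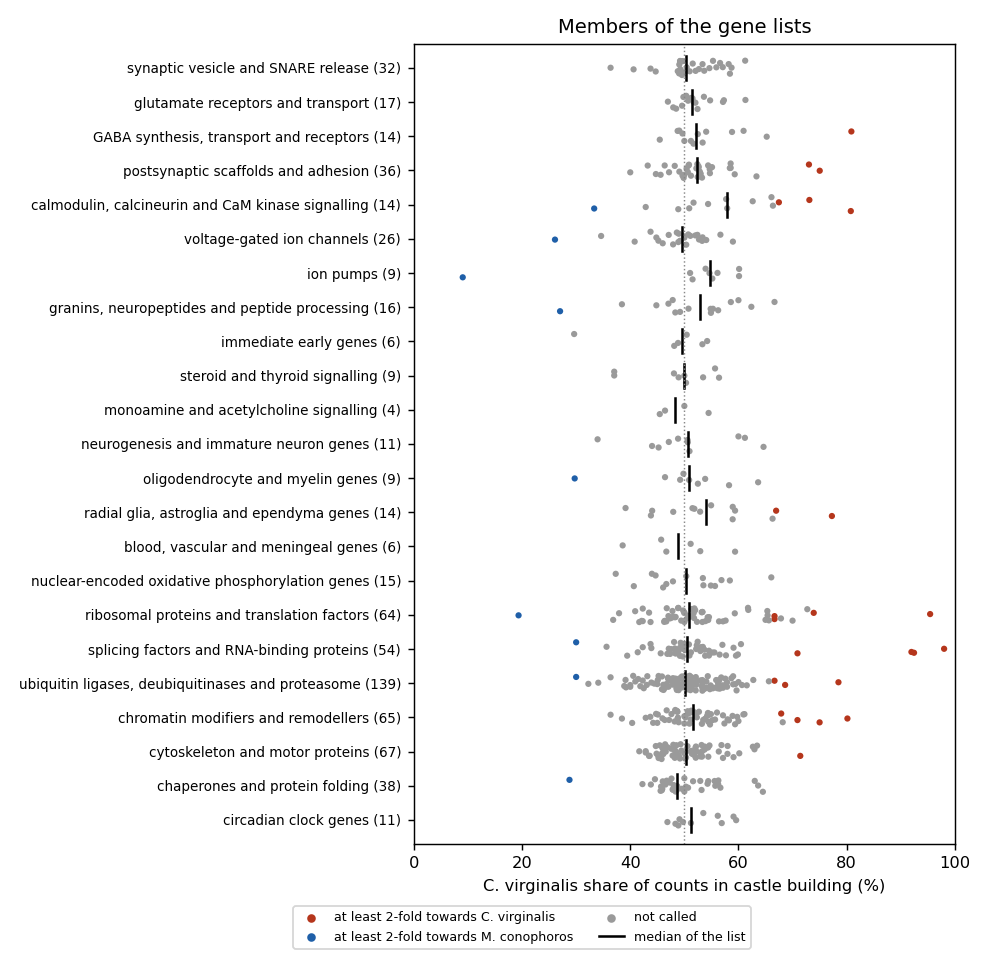
C. virginalis share (%) in castle building of each member of the gene lists with 4 or more members, with the number listed in brackets and the list's median as a bar. Red and blue members were called towards C. virginalis and M. conophoros; the medians lie between 48.2 and 57.8%.

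At the highest depth, where counting error is smallest, the intervals were narrow. Among the 8 deepest genes with a symbol, the calcium pump atp2b2 had 56.1% (54.8 to 57.5%) and the calcium channel cacna1a 52.4% (51.2 to 53.7%). The amyloid precursor-like gene aplp1 had 52.1% (51.0 to 53.3%) and nrn1 51.6% (50.3 to 53.0%), although nrn1 had 53.9% in the first castle building library and 49.1% in the second. The share of all assigned counts, 52.20%, lies inside the intervals of cacna1a, aplp1 and nrn1. None of these 4 ratios passed the edgeR test of castle building (adjusted p = 0.515 for atp2b2, 0.79 for cacna1a, 0.886 for aplp1 and 0.904 for nrn1). The intervals of complexin cplx1 (49.8%, 48.6 to 51.1%), the carboxypeptidase cpe (50.8%, 49.3 to 52.2%), ndrg4 (51.4%, 49.9 to 52.9%) and the protocadherin-like fat1 (49.8%, 48.2 to 51.4%) held 50%. These 4 genes were chosen as deep genes whose interval holds 50%. By counting error alone, an imbalance of the size of the 2-fold call lies far outside it. In the other libraries cpe, ndrg4 and fat1 lay between 46.2 and 52.3%, but cplx1 had 41.3 and 60.4% in pit digging.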

How the data were processed

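Whole-brain RNA was extracted with Trizol and sequenced on Illumina libraries, per the labels' protocols. The submitters' processing notes name STAR 2.4. The authors deposited, per library, whole-number counts per gene on each parental allele without normalization, and the log2 ratio of the alleles, per the file headers. Not given in the sources used here are the build, the annotation, the informative sites, strand use and the allele counter. Each allele of a listed gene had at least 6 counts. Castle building totals were at least 21 in each table, against at least 12 in the tables of the other libraries.

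Castle building counts were averaged over both libraries, rounded and used as 1 sample, with Clopper-Pearson 95% intervals. A call needed a 2-fold ratio and an interval excluding 50%. CPM are counts on both alleles scaled to 1000000 assigned counts.

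For tests, allelic counts of genes in all 6 tables with a mean total of at least 20 (6844 genes) entered glmQLFit and glmQLFTest of edgeR 4.0.16 (R 4.3.3). The model had 1 intercept for every sample and 1 allele coefficient for every paradigm, which left 2 residual degrees of freedom. Its biological coefficient of variation was 10.8%. The SE is the log2 value over the square root of F. The procedure was also run on simulated data in which castle building varied like the other samples, so that run could not check this assumption. P-values were adjusted by Benjamini-Hochberg (threshold 0.05). The labels do not say whether libraries came from separate animals, and p-values reflect the spread among these samples alone, which may be technical.

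Named genes had a symbol: of calls with at least 50 counts, the 12 largest folds each way; up to 4 called members of each list, or its deepest member; the 8 deepest genes; the 5 deepest with an interval holding 50%, of which 1 is not reported here; the 5 deepest calls listed in castle building alone; and the genes passing against the other samples. Genes passing against the other samples were named only where castle building lay outside the range of the other 4 libraries. The members, lists and tests were chosen with earlier results of these data known. Alternatives were DESeq2 1.42.0, TMM factors per allele column, other filters, folds, scalings and treatments of the castle building libraries, a replicate block and each library left out. Genes with near-identical copies can share reads.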

Additional observations from a re-analysis of the deposited data

Results flagged for a closer look

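Set apart here are genes with a symbol whose castle building ratio differed from that of pit digging and isolation. The test was that of the difference itself (edgeR). With 1 castle building sample, a difference of the paradigm cannot be told apart from a difference of that sample alone. The differences are log2 ratios of castle building minus the mean of the others. They were 3.01 for tpt1, 2.72 for ncapd2, 2.52 for ddx5, 2.13 for abat, 2.09 for abi1, 1.87 for serinc1, 1.81 for ywhaq, 1.74 for wsb1, 1.61 for exoc6 and 0.90 for gad2, and castle building lay above all 4 other libraries for each. They were -4.76 for atp1b4, -3.28 for id2, -2.47 for mgrn1, -1.87 for stmn2, -1.85 for rgs3 and -1.47 for scg3, and castle building lay below all 4. A place outside the range of the other libraries was a condition for naming these genes, so it adds no support. Tpt1 and atp1b4 passed under all 13 alternatives of this test, ywhaq under 12, and ddx5 and serinc1 under 11. Ncapd2, abat, wsb1, id2, mgrn1 and scg3 passed under 10, gad2 and rgs3 under 9, stmn2 under 8, and abi1 and exoc6 under 7. Of the genes named here, only tpt1 and atp1b4 passed both without isolated replicate 1 and without isolated replicate 2. Leaving out either castle building library keeps the other, which differs by less than sampling noise, so passing there adds little support. The 13 alternatives also include those with the castle building libraries as 2 samples. These kept all 25 calls and treat copies within sampling noise as replicates, so passing them adds no support. The test borrows the spread of the other groups for a lone castle building sample, and of all 25 calls 6 remained without isolated replicate 1 and 6 without isolated replicate 2.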

How the results depend on the processing

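Calls by size moved with the threshold: 516 and 207 genes towards C. virginalis and M. conophoros at 1.5-fold, 63 and 11 at 4-fold, 159 and 19 with at least 100 counts, and 49 towards M. conophoros with at least 50. Relative to the library-wide ratio 148 were called towards M. conophoros, and relative to the median gene ratio 98. Either castle building library alone gave 269 to 281 and 95 to 105, and 342 and 338 of the 360 calls held in replicate 1 and in replicate 2. List members called at 1.5-fold were 49 and 16. The share of all counts was 52.29% over genes in all tables and 52.27% without COX1, the only member listed as mitochondrially encoded. For the castle building test, DESeq2 gave 55 and 3, and leaving out each library gave 45 to 142 and 3 to 9. For castle building against the others, DESeq2 gave 9 higher, a mean total of at least 100 gave 7 and 5, and leaving out each library gave 5 to 17 and 3 to 25. With the castle building libraries as 2 samples the counts were 445 and 174 for the first test and 152 and 202 for the second, and these treat copies within sampling noise as replicates. With a replicate block added they were 461 and 163, and 119 and 202. Replicate differences of isolation and pit digging did not go together (correlation of -0.0178 over 4752 genes), so the numbers showed no pairing of allelic ratios there. With castle building the correlations were -0.00511 (pit digging) and 0.00737 (isolated). These cannot show a pairing, because the castle building libraries differ by less than sampling noise. No called gene named here changed direction under these alternatives. For castle building against the others, however, the balance of the counts did change. More genes were higher than lower in the main fit. More were lower without pit digging replicate 2, with the castle building libraries as 2 samples, and with the replicate block added. The share of nrn1, which was not called, was 49.1% without castle building replicate 1 and 53.9% without replicate 2. The listing limit and counts under 50 set what could be called.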
